A study of Mus musculus with 41 samples.

Results

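Pck1, G6pc, Tat, Pklr, Pdk4, Cpt1a, Ppargc1a and Igfbp1 are 8 genes whose transcripts in the liver are known to follow fasting and feeding. They were taken by name, as the spots of the mRNA arrays that carry these symbols, which gave 8 of 27962 gene names, 10 of 41174 probes and 19 of 43379 non-control spots per array. Cpt1a and Ppargc1a each had a pair of probes, and the brighter one is reported unless both are mentioned. RNA was compared from 28 arrays, each with the RNA of 1 mouse: liver of 7 nanoTiO2-exposed and 8 control (air exposed) mice, and lung of 7 exposed and 6 control mice. By the numbers in their labels, 12 mice gave both organs. All were adult female C57BL/6 mice (C57BL/6BomTac in the methods) with no altered gene that had been time-mated and had not conceived. Exposed mice inhaled UV-titan, a surface-coated nanosized titanium dioxide, at 40 mg/m3 for 1 h per day on 11 days, control mice inhaled filtered air, and both were killed 5 days after the last exposure. The hour of killing, and whether the mice had food before it, are not given in the sources used here, so that neither can be set beside the values. The sample RNA carried Cy5 and a reference RNA from pooled mouse cell lines carried Cy3 on every array. A level is the log2 ratio of the sample to this reference, and levels are compared on 1 probe and not between genes. Between organs the comparison is limited, since for some genes the reference signal itself differed between liver and lung arrays, as given below.

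In the fasted state, glucagon and glucocorticoids are known to raise and insulin to lower the transcripts for new glucose production in the liver. Pck1 encodes cytosolic phosphoenolpyruvate carboxykinase and G6pc the catalytic subunit of glucose-6-phosphatase, the enzymes at the start and the end of gluconeogenesis, and Tat encodes tyrosine aminotransferase, which feeds amino acid carbon into it. Pdk4, a kinase that switches pyruvate dehydrogenase off, and Cpt1a, which lets long-chain fatty acids into mitochondria, turn the cell from glucose to fat as fuel. Ppargc1a is a transcriptional coactivator of these programs, and Igfbp1 is a secreted binding protein for insulin-like growth factors that insulin represses. Pklr, the liver form of pyruvate kinase, works in the opposite direction, in glycolysis, and is known to rise with carbohydrate feeding. In the lung, the same enzymes of gluconeogenesis are not known as a main product, whereas Pck1 and Pdk4 are well known in fat.

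The promoters of Pck1, G6pc and Igfbp1 are shown because these genes are textbook cases of control by cyclic AMP and insulin. All 8 genes were found in the RefSeq promoter table of GRCm38.p6, with 9 promoters in all. On that assembly the genes of glucose production lie at chr2:173153073-173159274 (Pck1), chr11:101367716-101377903 (G6pc) and chr8:109986078-109999804 (Tat), and Pklr at chr3:89136122-89146815. Pdk4 lies at chr6:5483351-5496278, Cpt1a at chr19:3322326-3385735, Ppargc1a at chr5:51454249-52115853 and Igfbp1 at chr11:7197787-7202546. The 250 bases upstream of each start are written 5′ to 3′ on the strand of the gene, which is the plus strand for these 3 promoters (chr2:173152823-173153072, chr11:101367466-101367715 and chr11:7197537-7197786), and capitals mark the motifs found.
Pck1: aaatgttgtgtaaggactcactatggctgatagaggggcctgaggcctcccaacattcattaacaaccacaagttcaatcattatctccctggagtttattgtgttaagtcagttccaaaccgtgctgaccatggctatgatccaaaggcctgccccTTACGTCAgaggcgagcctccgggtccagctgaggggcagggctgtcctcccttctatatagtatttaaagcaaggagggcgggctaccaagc
G6pc: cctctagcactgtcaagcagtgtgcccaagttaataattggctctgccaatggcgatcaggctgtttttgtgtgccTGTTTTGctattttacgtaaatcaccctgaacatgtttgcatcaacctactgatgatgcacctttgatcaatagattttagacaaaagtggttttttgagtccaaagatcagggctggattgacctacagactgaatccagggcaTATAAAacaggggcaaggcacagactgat
Igfbp1: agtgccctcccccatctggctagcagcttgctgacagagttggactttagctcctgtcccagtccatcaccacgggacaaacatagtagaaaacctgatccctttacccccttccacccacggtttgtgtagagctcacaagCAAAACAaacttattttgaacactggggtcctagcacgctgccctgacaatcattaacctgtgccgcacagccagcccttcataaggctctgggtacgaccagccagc
The capitals in Pck1 mark TTACGTCA, a variant of the cyclic AMP response element, at bases -93 to -86 from the start, and 0.447% of 32851 promoters held these letters on either strand. The capitals in Igfbp1 mark CAAAACA, the core of the insulin response element, at -108 to -102, and those in G6pc mark its reverse complement at -174 to -168 and TATAAA at -29 to -24. CAAAACA was in 5.56% and TATAAA in 12.4% of all promoters, and among the other genes CAAAACA was also found for Cpt1a (-219 to -213, reverse strand) and TATAAA for the downstream start of Pklr (-31 to -26). None of the 9 windows held, on either strand, TGACGTCA (the full cyclic AMP element, in 1.55% of all promoters), GTAAACA (a forkhead site, 3.17%), AGAACA (a glucocorticoid half-site, 16.1%), CACGTG (an E-box, 6.02%) or the direct repeat 1 consensus of PPAR (0.0335%). A match of letters is a description of the sequence and no measurement of binding.

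Between 55.1 and 70.5% of the spots of an array were well above background in Cy5. The labelled organs matched their markers: the mean log2 ratio of 8 hepatocyte markers was 5.24 to 5.73 in the livers and 0.91 to 2.85 in the lungs, and that of 6 lung epithelial markers 4.88 to 5.44 in the lungs and 0.14 to 0.62 in the livers. The arrays lay on 4 slides per organ. Exposed mice held positions 1 and 2 and control mice positions 3 and 4 of a slide, which cannot be told apart from exposure, and slide 4 of the lung held exposed mice only. Lung and liver arrays were on different slides and read by different scanner software versions, so that these and the organ cannot be told apart either. In whole tissue, fewer cells of a type and less RNA per cell cannot be told apart.

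In the liver all 8 genes were read well above background on all 15 arrays. Pck1, G6pc, Tat and Igfbp1 were far above the reference RNA, Pklr and Cpt1a moderately above it, Ppargc1a slightly above it, and Pdk4 ranged from below it to far above it. No probe of the 8 genes passed the test between exposed and control livers (limma, Benjamini-Hochberg adjusted p under 0.05), and 0 of 41174 probes did (0%). Without adjustment, 1002 of 41174 probes (2.43%) and 0 of the 10 probes of these genes had p under 0.05. The exposed and control values of every gene overlapped.

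Pck1 had log2 ratios of 7.97 to 8.63 (median 8.19) in the 8 control livers and of 7.87 to 8.36 (median 8.07) in the 7 exposed livers. The difference, exposed minus control, was -0.17 ± 0.10 (SE), with a 95% interval of -0.39 to 0.06 and an exact permutation p of 0.17 over 6435 splits. The values overlapped nearly throughout, the lowest being an exposed mouse and the highest a control mouse. G6pc had 4.44 to 5.34 (median 5.04) in control and 4.43 to 5.28 (median 4.90) in exposed livers, a difference of -0.20 ± 0.14 (SE; 95% interval -0.50 to 0.10). Tat had 5.45 to 6.04 (median 5.80) in control and 5.41 to 5.90 (median 5.60) in exposed livers, a difference of -0.14 ± 0.10 (SE; 95% interval -0.35 to 0.06). For these 3 genes of glucose production the exposed mean was below the control mean on each of the 4 slides, by -0.27 to -0.07 for Pck1, -0.21 to -0.06 for G6pc and -0.22 to -0.01 for Tat, each being the mean of 1 or 2 exposed livers minus that of 2 control livers. How many of all probes lay on 1 side on each slide was not counted. With slide as a block the differences were -0.16, -0.15 and -0.11, with unadjusted p of 0.094, 0.022 and 0.039 and an adjusted p of 0.98 from limma for each. Igfbp1 was at -0.17 in that fit (limma, unadjusted p = 0.046). There 1973 of 41174 probes and 3 of the 10 probes of the 8 genes had an unadjusted p under 0.05, and 0 passed after adjustment. With the background model fitted on all spots the differences of Pck1, G6pc and Tat were positive instead, up to 0.55 for Pck1. In the main fit, on the ratio scale, the intervals leave out larger changes in the direction measured than 1.31-fold (Pck1), 1.41-fold (G6pc) and 1.27-fold (Tat).

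Igfbp1 had log2 ratios of 6.61 to 7.30 (median 6.86) in control and of 6.11 to 7.12 (median 6.75) in exposed livers. Its difference was -0.22 ± 0.13 (SE; 95% interval -0.49 to 0.05; exact permutation p = 0.14), and 1 of 7 exposed livers was above the control mean. Pklr, the feeding gene of the group, had 2.04 to 3.31 (median 2.98) in control and 2.27 to 3.14 (median 2.56) in exposed livers, a difference of -0.15 ± 0.18 (SE). The feeding gene Pklr and the fasting genes Pck1, G6pc, Tat and Igfbp1 were thus on the same side of 0, each by less than the SD between mice of a group. Cpt1a was at 2.28 to 3.01 (median 2.66) in control and 2.14 to 3.04 (median 2.64) in exposed livers, a difference of -0.01 ± 0.14 (SE), and 0.06 ± 0.16 (SE) on its dimmer probe. Ppargc1a was at 1.17 to 2.14 (median 1.71) and 1.39 to 2.05 (median 1.79), a difference of 0.07 ± 0.13 (SE). Pdk4 spanned the widest range, -0.18 to 3.34 (median 1.83) in control and -0.19 to 2.85 (median 2.26) in exposed livers. Its difference of -0.15 ± 0.57 (SE) had a 95% interval from -1.35 to 1.04, so that a change of up to 2.55-fold downward lay within it.

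**Figure D1:**
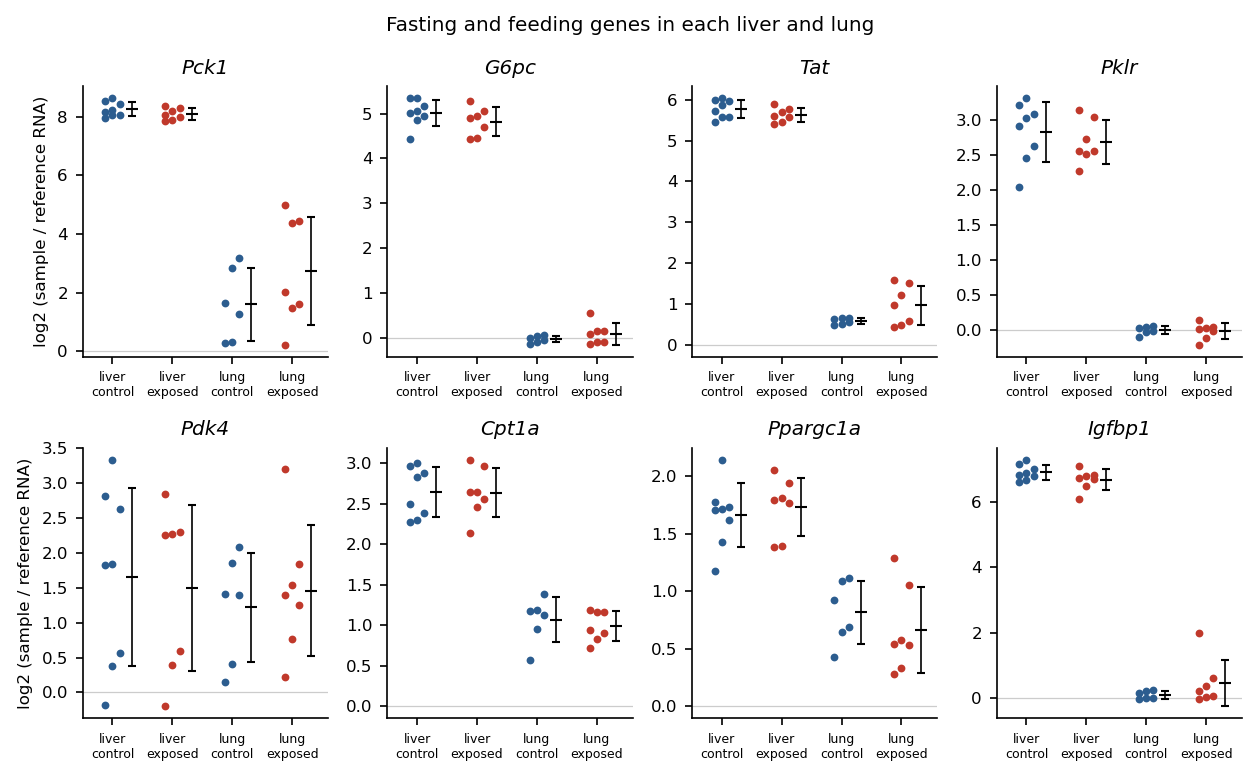
Log2 ratio of sample to reference RNA of each gene (vertical axes) in each liver and lung, with control mice in blue and exposed mice in red (1 point per mouse); the black marks beside the points give the mean and SD of each group. For Pck1, G6pc, Tat, Pklr, Cpt1a and Igfbp1 every liver is above every lung, while the organs overlap for Ppargc1a (livers from 1.17, lungs up to 1.29) and for Pdk4 (livers from -0.19 to 3.34, lungs from 0.15 to 3.21).

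Pathway genes around the 8, from lists chosen with earlier results of these data known, were as little changed in the liver. Of 120 listed genes 117 were measured, and 0 of the 117 passed the test in either direction. The 16 genes of gluconeogenesis and amino acid breakdown had a median difference of -0.10, beside -0.0023 over all probes, from -0.20 for Fbp1 (fructose-1,6-bisphosphatase) to 0.09 for Sdsl. The 24 genes of glucose use and fat synthesis had a median of -0.10, with Acly (ATP citrate lyase) lowest at -0.29 and Pfkfb1 highest at 0.06. The 22 genes of fatty acid oxidation and ketone bodies had a median of 0.03, with Acot1, an acyl-CoA thioesterase, highest at 0.43 ± 0.38 (SE). The remaining lists had medians of -0.01 (23 hormone signaling and transcription regulators), -0.0007 (12 glucocorticoid targets), 0.03 (9 genes of pyruvate dehydrogenase and its kinases) and -0.05 (11 insulin-like growth factors and binding proteins). Their lowest values were -0.42 for Gadd45g and -0.33 for Nr4a1, and their highest 0.28 for Fkbp5 and 0.24 for Lpin1. The 8 hepatocyte markers were on the same side, with a median of -0.20 and a range of -0.33 (Fgb) to -0.10 (Ttr), and 0 of 8 passed the test. Their unadjusted p from limma was 0.00017 for Alb, 0.0019 for Apoa1, 0.0045 for Fgb, 0.0079 for Ahsg and 0.055 to 0.13 for the others. The part of the hepatocyte markers in the slightly negative values of the genes of glucose production was not tested.

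The genes differed more between mice of 1 group than most transcripts did. Over 21181 probes well above background in all livers, the median SD of the log2 ratio within groups was 0.15. Pdk4 had an SD of 1.24, the 13th largest of the 21181 (99.9th percentile), and the other genes had SDs of 0.20 (Tat, 74.2nd percentile) to 0.38 (Pklr, 95.8th percentile). Among 23362 probes well above background in all lungs Pdk4 had an SD of 0.87 (99.7th percentile), Tat 0.36 (97.7th), Ppargc1a 0.33 (97.3rd) and Cpt1a 0.23 (92.3rd). Each of the 8 genes was thus above the median probe of the liver in spread. Lung Pck1 had a larger SD, 1.60, than lung Pdk4 but has no rank here, since it was well above background on 12 of the 13 lungs.

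Liver Pdk4 was divided at its largest gap into a lower and an upper range. In 6 livers, of control mice 34, 37 and 45 and exposed mice 19, 20 and 23, the log2 ratio was between -0.19 and 0.60, and in the other 9 it was between 1.83 and 3.34. The gap of 1.23 between them was 34.9% of the whole span of 3.53. For Igfbp1 the largest gap was 33.2% of the span, with 1 liver below it, and for G6pc 26.5%, with 3 below. In the other genes it was 13.4 to 22.3%. Such a share alone thus does not set Pdk4 apart, and the ranges are a description. The ranges did not follow exposure, since the lower one held 3 exposed and 3 control mice, and the upper one 4 and 5. They followed the slide in part. On slide 4 the 4 livers were at -0.19 to 0.40, on slide 1 the 3 livers at 1.84 to 2.85 and on slide 2 the 4 livers at 2.28 to 3.34, while slide 3 held both ranges, from 0.57 to 2.26. Other genes shifted over the same slides. G6pc had a mean of 5.32 on slide 1 and 4.54 on slide 4, Igfbp1 7.19 and 6.54, and in the other direction Cpt1a 2.30 and 2.85 and Ppargc1a 1.42 and 1.77. The Cy5 signal alone gave SDs of 1.27 (control) and 1.19 (exposed) for Pdk4, against 1.27 and 1.19 for the ratio. Other genes differed between the scales. The Cy5 SDs were larger for Igfbp1 (0.83 and 0.93, against 0.23 and 0.31) and G6pc (0.69 and 0.70, against 0.29 and 0.32). They were also larger for Pck1 (0.48 and 0.43, against 0.24 and 0.19), Tat and Cpt1a. For Pklr (0.26 and 0.13, against 0.43 and 0.31) and Ppargc1a they were smaller. Whether slides followed the order of killing, dissection or labeling is not given in the sources used here, and the part of slide in these ranges was not tested.

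**Figure D2:**
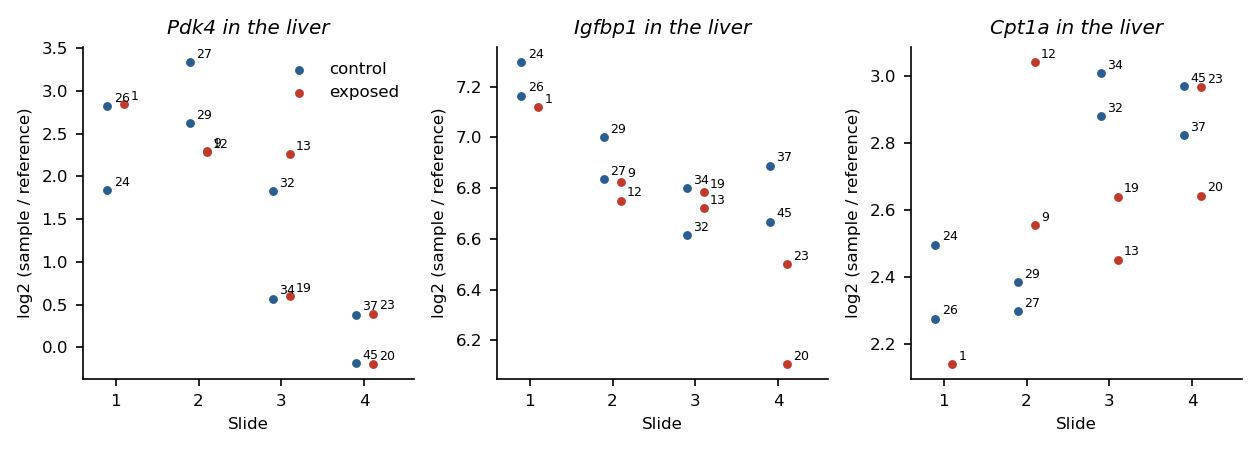
Log2 ratio of sample to reference RNA (vertical axis) of Pdk4, Igfbp1 and Cpt1a in each liver by array slide (horizontal axis), with control mice in blue, exposed mice in red and the mouse number beside each point. Pdk4 lies between -0.19 and 0.40 on slide 4 and between 1.84 and 3.34 on slides 1 and 2 in both groups, Igfbp1 is lowest and Cpt1a highest on average on slide 4.

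Within groups, 1 of the 28 pairs of genes varied together across the 15 livers past the threshold. G6pc and Tat had a Pearson r of 0.81 (permutation p = 0.00032, adjusted p = 0.0090 over the 28 pairs) and a Spearman rho of 0.80 (permutation p = 0.00081, adjusted p = 0.023), and r was 0.80 without the 2 livers farthest from the median of G6pc. Livers 20 and 37, of slide 4, were low in both transcripts and livers 1, 24 and 26, of slide 1, high in both. With the slide means removed r was -0.020. The permutations were drawn within exposure groups across slides, so that the p-values for these pairs take no account of slide. The liver of mouse 34 had the highest Tat (6.04) with a G6pc of 5.06, in the middle of its range. Within the 7 exposed livers r was 0.75 (exact permutation p = 0.056, adjusted p = 0.17) and within the 8 control livers 0.87 (exact permutation p = 0.0016, adjusted p = 0.023). Cpt1a and Ppargc1a had an r of 0.66 (permutation p = 0.0089, adjusted p = 0.055) and a rho of 0.68, G6pc and Igfbp1 an r of 0.66 (permutation p = 0.0098, adjusted p = 0.055) and a rho of 0.64, and Tat and Pklr an r of 0.65 (permutation p = 0.015, adjusted p = 0.066). These 3 pairs missed the threshold, and with slide means removed their r was 0.51, -0.15 and -0.15.

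Over all 15 livers Pdk4 had an r of -0.69 with Cpt1a (permutation p = 0.0091, adjusted p = 0.055) and of -0.69 with Pck1 (permutation p = 0.0092, adjusted p = 0.055). With Igfbp1 it had an r of 0.62 (permutation p = 0.017, adjusted p = 0.066). With slide means removed these were -0.52, -0.77 and -0.07. The relations of Pdk4 are also given within each of the ranges on either side of its largest gap, over few livers and a narrower span. In the 6 livers of the lower range r was 0.86 with Pklr, 0.85 with Igfbp1 and 0.14 with Cpt1a, and in the 9 livers of the upper range it was -0.20, 0.15 and -0.65. The relation of Pdk4 to Ppargc1a was -0.03 in the lower and -0.70 in the upper range, and that to Pck1 0.39 and -0.46. No p is given for the values within a range, since the ranges were set on Pdk4 itself and part of the livers in each share a slide.

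**Figure D3:**
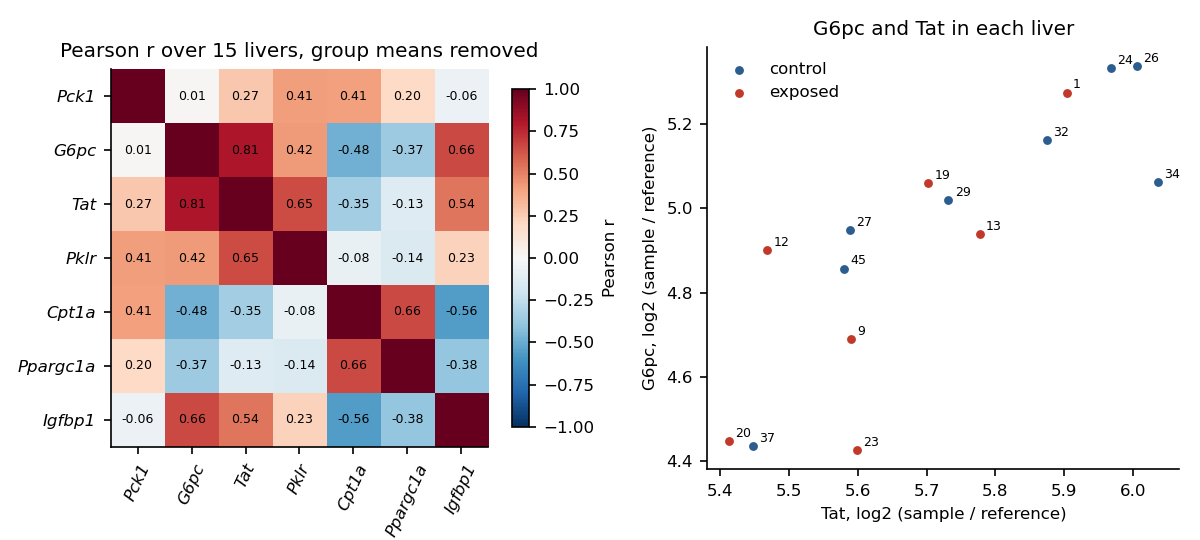
Left, Pearson r between 7 of the genes over the 15 livers after removing group means (color scale from -1 to 1). Pdk4 is left out, as its values were divided at their largest gap. Right, log2 ratio of G6pc against that of Tat in each liver, control mice in blue and exposed mice in red, with mouse numbers. The highest r is 0.81 for G6pc and Tat, and the right panel shows livers 20 and 37 low and livers 1, 24 and 26 high in both.

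The transcripts most like each gene over the 15 livers, with group means removed, among 18720 named probes well above background, are given as a description. Tat was nearest to Prodh2 (r = 0.98), a hydroxyproline-degrading enzyme of the liver, and to Pzp (0.97) and Cyp2c70 (0.96). Pck1 was nearest to Ftcd (0.91), an enzyme of histidine breakdown, Syde2 (0.87) and Anpep (0.86). G6pc was nearest to Lnx2 (0.95), Kif14 (0.94) and Zfp31 (0.93), and Igfbp1 to Sf1 (0.94), Mesdc2 (0.91) and B3gat3 (0.90). Pdk4 was nearest to Tnfaip2 (0.98), Dtx4 (0.97) and Insig2 (0.96), which in the liver encodes a known brake on sterol synthesis. Cpt1a was nearest to Rragc (0.96), 4930402E16Rik (0.96) and Map1lc3b (0.96), Ppargc1a to Gcdh (0.92), Chrne (0.88) and Cdc5l (0.86), and Pklr to 4933400C05Rik (0.94), Abhd13 (0.92) and Tmem16h (0.92). The livers share slides, so that these values hold the slide shifts as well.

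Between organs, 9 of the 10 probes were lower in control lung than in control liver, and Pdk4 was the exception. In this comparison 60.0% of all 41172 probes passed the test, 29.6% of them all as lower and 30.4% as higher in lung, so that passing it sets the genes little apart. On the ratio scale the largest differences were those of Igfbp1 and Pck1. Igfbp1 was at -0.05 to 0.24 (median 0.07) in control lungs, -6.82 ± 0.21 (SE) from its liver level (113-fold, 95% interval 84.1 to 152). Pck1 was at 0.28 to 3.19 (median 1.47), -6.67 ± 0.55 (SE) from liver (102-fold, 46.7 to 221). Lung Pck1 varied more between mice than the other 7 genes did there. Tat was at 0.49 to 0.65 (median 0.60), -5.20 ± 0.14 (SE) from liver (36.7-fold), and G6pc at -0.12 to 0.07 (median -0.02), -5.04 ± 0.13 (SE) from liver (32.9-fold). Pklr was at -0.10 to 0.07 (median 0.01), a difference of -2.83 ± 0.14 (SE; 7.12-fold). Of these 5 genes no lung reached the level of any liver. Their adjusted p-values from limma were between 4.2e-24 and 6.1e-12, and the exact permutation p was 0.00033 for each, the smallest that 3003 splits can give.

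Cpt1a and Ppargc1a differed less between the organs. Cpt1a was at 0.57 to 1.38 (median 1.15) in control lungs, -1.58 ± 0.14 (SE) from liver, or 2.98-fold, and -1.96 on its dimmer probe. Ppargc1a was at 0.43 to 1.12 (median 0.81), -0.85 ± 0.15 (SE) from liver, or 1.80-fold, and -1.13 on its dimmer probe. Its call was lost with the background model fitted on all spots (-0.55, adjusted p = 0.071). Pdk4 was at 0.15 to 2.08 (median 1.41) in control lungs against -0.18 to 3.34 in control livers, a difference of -0.43 ± 0.54 (SE; 95% interval -1.55 to 0.68, adjusted p = 0.52). The lung values of Pdk4 thus lay within the liver range.

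For Igfbp1, Pck1, G6pc and Pklr the reference signal was well above background on 0 or 1 of the 13 lung arrays, but on all 15 liver arrays. The reference channel thus did not read alike in both organs, which limits the ratios between them. The Cy5 signal alone, normalized between arrays, gave larger folds for these 4 genes and for Tat, whose reference signal was well above background on all 13. The cause of the difference between the scales was not tested. On that scale Tat was 331-fold and Pck1 273-fold higher in control liver than in control lung, Igfbp1 was at least 422-fold higher, with 2 of 6 control lungs well above background, G6pc at least 151-fold, with 0 of 6, and Pklr at least 10.4-fold, with 1 of 6. Cpt1a was 4.06-fold, Ppargc1a 1.63-fold and Pdk4 1.37-fold higher in liver. On both scales Cpt1a, Ppargc1a and Pdk4, in this order, had the smallest differences, while the bounds of Igfbp1 and G6pc leave the order at the top unsettled. On the ratio scale the intervals of Igfbp1 and Pck1 overlapped, as did those of Tat (29.9 to 45.0) and G6pc (27.4 to 39.6), so that the order within these pairs is not settled.

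Of the 117 pathway genes, 106 passed the test between control lung and control liver, 81 as lower and 25 as higher in lung. All 16 genes of gluconeogenesis and amino acid breakdown passed, 15 as lower, with Cps1 (carbamoyl phosphate synthetase) lowest at -8.85 and Fbp1 at -7.52, and 1 as higher, the mitochondrial carboxykinase Pck2 at 0.94. Pck1 and Pck2 thus lay in opposite directions between the organs. Of 22 genes of fatty acid oxidation and ketone bodies, 17 were lower, with Cyp4a14 lowest at -7.36, and 1 was higher, Vldlr at 1.51. Of 24 genes of glucose use and fat synthesis, 20 were lower, with the glucose transporter Slc2a2 lowest at -6.42, and 3 were higher. The glucagon receptor Gcgr was at -6.02 and the growth factor Igf1 at -5.46. Higher in lung were Gadd45b at 3.87, the immediate early regulator Nr4a1 at 2.66, Igfbp5 at 3.59 and the pyruvate dehydrogenase phosphatase Pdp1 at 2.24. Thus 6 of 11 insulin-like growth factors and binding proteins and 5 of 12 glucocorticoid targets were higher in lung, the opposite direction to Igfbp1 and Tat.

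Between exposed and control lungs, 0 of the 10 probes passed the test, while 91 of 41172 probes did (0.221%), 82 as higher and 9 as lower. Without adjustment, 2914 of 41172 probes (7.08%) and 1 of the 10, that of Tat, had p under 0.05. Lung Pck1 had the largest difference of the 8, and the widest spread. It was at 0.28, 0.30, 1.29, 1.65, 2.85 and 3.19 in the 6 control lungs and at 0.23, 1.48, 1.59, 2.01, 4.38, 4.44 and 5.00 in the 7 exposed lungs. The 3 highest lungs were exposed mice 13, 23 and 19, yet the lowest was also an exposed mouse, 20, and the groups overlapped. The difference was 1.14 ± 0.77 (SE; 95% interval -0.50 to 2.78; adjusted p = 0.79, exact permutation p = 0.23 over 1716 splits). Within slides it was -0.51, 1.30 and 2.45 on slides 1, 2 and 3. Tat was at 0.49 to 0.65 (median 0.60) in control and 0.44 to 1.58 (median 0.97) in exposed lungs, a difference of 0.38 ± 0.17 (SE; unadjusted p = 0.043, adjusted p = 0.70, exact permutation p = 0.089), and within slides it was -0.04 to 0.74. The exposed lungs with the highest Tat, of mice 19, 1, 13 and 23, were above all control lungs, and the other 3 lay among or below them.

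The other genes differed less in the lung. Igfbp1 was at -0.05 to 0.24 in control lungs and -0.04 to 1.97 (median 0.21) in exposed lungs, a difference of 0.36 ± 0.26 (SE; adjusted p = 0.80), and without exposed mouse 1 the difference was 0.11. G6pc was at -0.12 to 0.07 in control and -0.13 to 0.57 (median 0.10) in exposed lungs, a difference of 0.12 ± 0.09 (SE; adjusted p = 0.82), and 0.04 without exposed mouse 1. G6pc was well above background on 6 of 7 exposed and on 0 of 6 control lungs, and so lay near the limit of detection. Of 41174 probes, 14 (0.034%) were read in at least 6 exposed and no control lungs, and 0 the other way round. The share of all spots well above background was 61.8 to 67.5% (median 66.3%) in exposed and 61.3 to 66.4% (median 62.9%) in control lungs. The part of this share in the counts was not tested. Pdk4 had 0.15 to 2.08 (median 1.41) in control and 0.22 to 3.21 (median 1.40) in exposed lungs, a difference of 0.24 ± 0.42 (SE), and -0.05 without exposed mouse 13, the highest. Cpt1a differed by -0.08 ± 0.11 (SE), Ppargc1a by -0.16 ± 0.16 (SE) and Pklr by -0.02 ± 0.05 (SE), each with overlapping groups.

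**Figure D4:**
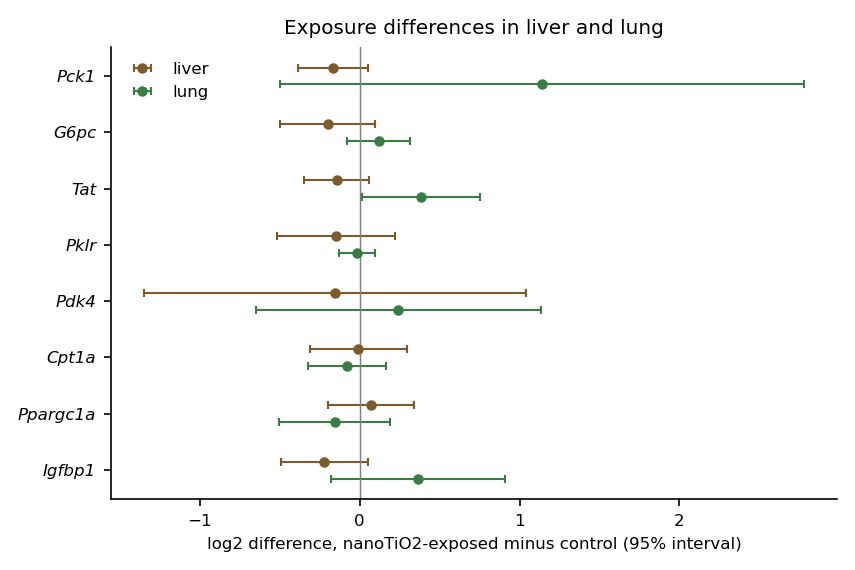
Difference in log2 ratio between nanoTiO2-exposed and control mice (horizontal axis) for each gene, in liver (brown) and lung (green), with 95% intervals from limma. All intervals in the liver include 0, and in the lung only that of Tat, 0.01 to 0.75 before adjustment, does not.

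Markers of other tissues moved with some of these lung values. The mean log2 ratio of 6 white fat markers was 1.44 to 3.93 (median 3.17) in control and 1.98 to 4.37 (median 3.05) in exposed lungs. It was 4.31, 4.37 and 4.15 in exposed mice 13, 23 and 19, the lungs with the most Pck1, and 1.44, 1.57 and 1.98 in control mice 29 and 27 and exposed mouse 20, the lungs with the least. Adiponectin (Adipoq) ranged from 0.66 in control mouse 29 to 5.19 in exposed mouse 23, whereas leptin (Lep), also on the list, stayed at -0.04 to 0.33. Of the 6 markers, 4 to 6 were well above background in each lung. The mean of the brown fat markers Ucp1 and Cidea was 5.58 in exposed mouse 13, highest also in Pdk4 (3.21) and Ppargc1a (1.29), and 4.27 in control mouse 34. Mouse 34 had a Pdk4 of 1.41 and a Ppargc1a of 0.69. Exposed mouse 23, with a brown fat mean of 3.52, had 1.40 and 0.54, and control mouse 24, with a mean of 3.07, had 2.08 and 1.08. Ucp1 itself reached 6.08 in mouse 13 and 4.13 in mouse 34. In the livers the white fat mean was 0.10 to 0.95. None of the 6 white fat markers passed the test between exposed and control lungs. Heart muscle markers moved with lung Pdk4: the mean of 6 was 0.84 to 3.21 (median 2.46) in control and 2.24 to 3.37 (median 2.74) in exposed lungs, with all 6 well above background in every lung. The 5 lungs highest in Pdk4, of mice 13, 24, 26, 19 and 7, had the 5 highest means, 3.00 to 3.37, and control mouse 27, with a Pdk4 of 0.41, had the lowest, 0.84. None of the 6 passed the test between exposed and control lungs. The part of fat or heart muscle in the lung values of Pck1, Pdk4 and Ppargc1a was not tested.

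The lungs of mice 1, 19 and 13 had the highest means of the 8 hepatocyte markers and the highest Tat, Igfbp1 and G6pc. The mean of the markers was 0.91 to 1.67 (median 1.36) in control and 1.19 to 2.85 (median 1.77) in exposed lungs, and 5 to 8 of the 8 were well above background in each lung. Exposed mouse 1 had the highest mean, 2.85, and with it the highest Igfbp1 (1.97) and G6pc (0.57) and a Tat of 1.50. Mice 19 and 13 followed with 2.38 and 2.32, and Tat was 1.58 and 1.20 there. Mouse 23 came next with 1.77 and a Tat of 0.97, but had an Igfbp1 of 0.04 and a G6pc of -0.08. Exposed mouse 7, with a mean of 1.58, had the lowest G6pc of all lungs, -0.13. The differences of the markers between exposed and control lungs ranged from 0.03 (Ttr) to 1.14 (Fgb) with a median of 0.69, and 0 of 8 passed the test. Fbp1, a liver enzyme of the pathway lists, was at 0.84 ± 0.31 (SE; adjusted p = 0.59), and it too was highest in mouse 1 (2.41). The part of liver transcripts in the lung values of Tat, Igfbp1 and G6pc was not tested. Of the 117 pathway genes 0 passed the test in lung, with list medians from -0.01 to 0.23, beside 0.0012 over all probes.

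**Figure D5:**
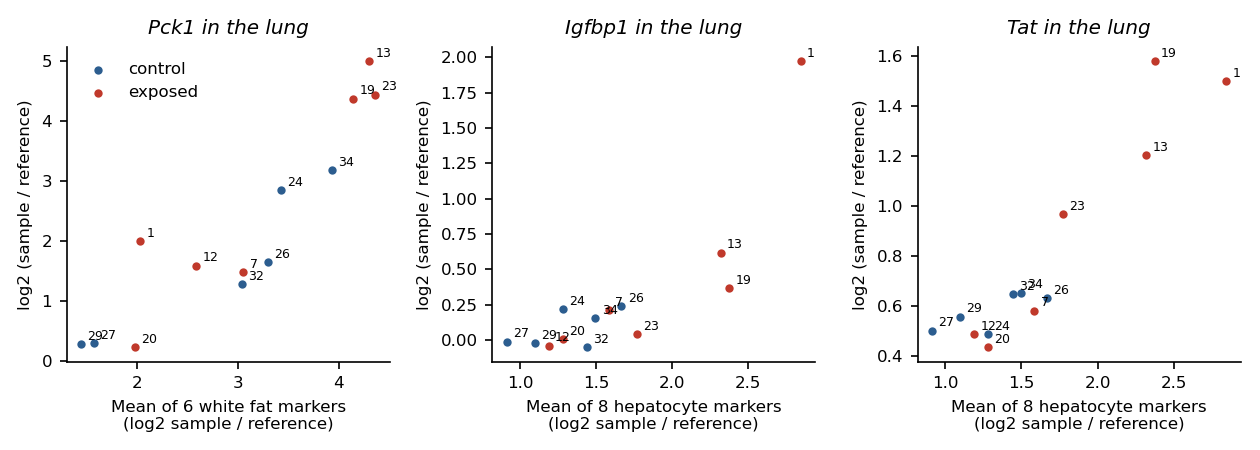
Log2 ratio (vertical axes) of Pck1 against the mean of 6 white fat markers, and of Igfbp1 and Tat against the mean of 8 hepatocyte markers (horizontal axes), in each of the 13 lungs, control mice in blue and exposed mice in red with mouse numbers. Mice 13, 23 and 19 are highest in Pck1 and in the fat markers, and mouse 1 is highest in Igfbp1 and in the hepatocyte markers.

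Whether exposure acted differently in the organs was tested as the liver difference minus the lung difference. Of the 10 probes 0 passed, beside 60 of 41172 (0.146%). Without adjustment, 1 of the 10 and 1774 of 41172 probes (4.31%) had p under 0.05. Neither this fit nor its permutation test paired the organs of a mouse. Tat had the smallest p of the 8, at -0.53 ± 0.20 (SE; unadjusted p = 0.015, adjusted p = 0.97, exact permutation p = 0.027), followed by Igfbp1 at -0.59 ± 0.29 (SE; exact permutation p = 0.050) and G6pc at -0.32 ± 0.18 (SE). Pck1 was at -1.30 ± 0.77 (SE), and Ppargc1a at 0.23 ± 0.21 (SE) in the other direction. With mouse number as a block, Tat was at -0.67 (limma, unadjusted p = 0.00019, adjusted p = 0.11). In that fit 3 of the 10 probes and 2456 of 41172 had an unadjusted p under 0.05. Across the 12 mice with both organs, paired by the number in the labels, no gene was related between lung and liver past the threshold over the 8 tests. Tat came nearest, with r = 0.71 (permutation p = 0.0087, adjusted p = 0.069) and rho = 0.71 (permutation p = 0.015, adjusted p = 0.085), and r = 0.68 without the 2 mice farthest from the median of the liver value. Igfbp1 had r = 0.66 and rho = 0.66 (permutation p = 0.053 and 0.021), and r = 0.34 without the 2 mice farthest from its own liver median. Pdk4, the most variable of the 8 in liver, had r = 0.04 and rho = -0.06 between them.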

How the data were processed

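Liver and lung mRNA was measured on 28 two-color arrays of 45018 spots. The authors deposited for each array the scanner software's spot and local background signals as intensity values that were not normalized (Agilent Feature Extraction 9.5.3.1 for lung and 10.1.1.1 for liver, per the file headers). The authors also deposited a table of processed log2 ratios made by LOWESS normalization, used here as an alternative. The lung miRNA arrays of the series were not used here.

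Median intensities were corrected with normexp (offset 50) fitted without spots marked as outliers, and normalized by loess within arrays. Spots marked as outliers (0.256 to 0.516% per array) did not enter the values, and several spots of 1 probe were replaced by their mean. Groups, taken from the labels, were compared with limma 3.58.1 in R 4.3.3 (lmFit and eBayes, Benjamini-Hochberg adjustment over all probes, threshold 0.05), each organ apart for exposure and all arrays together between organs. Permutation tests were 2-sided, exact over all splits of the arrays for single genes, and with 100000 draws for correlations over 10 or more mice. A fold is 2 to the power of the fitted log2 difference. A member with several probes was reported by the probe with the highest mean signal. From the pathway lists, called genes and the highest and lowest differences of a list could be named, and not all of them are reported here. The members, the gene lists, the marker lists and the motifs were chosen with earlier results of these data known. Alternatives changed the background correction, the normalization, the filter on dim probes, the source of values, the summary over probes, the slide block and the pairing by mouse. The Cy5 signal alone, and leaving out spots with a marked local background too, were added after seeing the data. The fit was tested on simulated data. Replicates are separate mice, and their number limits the precision. Lung and liver were paired by the number in the labels, and the paper describes the livers as coming from the mice of the lung analysis. The numbers 12, 20 and 23 are exposed mice in the mRNA labels but control mice in the lung miRNA labels. A number thus need not mark 1 mouse throughout the series. Deviations from the group means of the 12 mice correlated between the organs at -0.07 to 0.32, over 0.1 in 8 mice. For 7 of the 12 lungs the best-correlated liver of the group had the same number. Promoters came from RefSeq (GRCm38.p6), whose build is not that of the array design, which is not given in the sources used here.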

Additional observations from a re-analysis of the deposited data

Results flagged for a closer look

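Exposed mouse 1 lay apart from the other exposed lungs in G6pc, at a log2 ratio of 0.57 with the next lung at 0.16, and in Igfbp1, at 1.97 with the next at 0.62. In both the gap to the nearest lung was a larger part of the whole range of the 7 lungs than Dixon's 95% critical value for 7 samples. They were 2 of 32 groups of values tested, and chance alone flags about 1 group in 20. The mean of the 8 hepatocyte markers was also highest in this lung (2.85). Its part in these values was not tested.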

How the results depend on the processing

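No probe of the 8 genes was called between exposed and control mice in liver or lung, or between the organs' differences, under any of the alternatives run. The number of all probes called in lung fell from 91 to 15 with the background model fitted on all spots and to 7 with median centering in place of loess, and that of the difference between organs from 60 to 5 and 12, and to 35 with the scanner software's processed signals. With the replicate block, which pairs lung and liver by mouse, 51 probes were called for the difference between organs and 23344 between control lung and control liver, and the difference for Tat was -0.67 (adjusted p = 0.11). The block changed no call of the 8 genes. Leaving out 1 array at a time gave 69 to 93 probes in lung, 23950 to 24804 between organs and 47 to 63 for the difference. The number of called pairs of genes across livers was 0 in exposed livers alone, 2 in control livers alone, 2 without the 2 farthest livers and 5 in the authors' values. With slide means removed the correlation of G6pc and Tat turned to -0.020, and Pck1 and Pdk4 passed instead by Pearson r (-0.77, permutation test, adjusted p = 0.048). The Spearman rho of Pck1 and Pdk4 there was -0.725 and did not pass (permutation test, adjusted p = 0.11). The draws were made within groups and not within slides, so that these p-values take no account of slide. The causes were not tested.

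In the main fit, liver differences of the 8 genes were smaller than the spread between mice. The signs of all but Ppargc1a, which stayed positive, turned under at least 1 setting. Pck1 ranged from -0.28 to 0.55, Pklr from -0.20 to 0.57, G6pc from -0.36 to 0.18, Cpt1a from -0.05 to 0.17 and Pdk4 from -0.21 to 0.33 over the settings that kept all arrays, with the background model fitted on all spots giving the highest value except for Cpt1a. The highest values of Pck1 and Pklr were larger than their SDs within groups in the main values, 0.22 and 0.38. Signals near background in lung G6pc, Pklr and Igfbp1, and in the reference channel, limit what the ratios there can show.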
